A study of Mus musculus with 2 samples.

Results

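Gata3 encodes GATA3, a zinc finger transcription factor, and its transcript was followed in regulatory T cells (Tregs) sorted from adult mouse back skin and from adult mouse lung. It is 1 of the 27514 gene identifiers that both expression tables list. Cells were taken when they held at least 1 transcript of Cd3d, Cd3e or Cd3g, the CD3 chains of the T cell receptor complex, which kept 6400 of 6601 skin barcodes and 8349 of 8730 lung barcodes. Donors of the skin cells carried Foxp3-CreERT2GFP and donors of the lung cells Foxp3-GFP in a strain that the labels call Tachilla, both on C57Bl/6. In both reporters GFP is read out from Foxp3, the gene of the transcription factor that defines Tregs. Tissue was broken up with collagenase, which cuts collagen. The sort then took CD45+ CD3+ CD4+ cells with GFP, and their RNA was sequenced with 10x Single Cell 3' v2 chemistry. That chemistry counts captured RNA molecules near their 3' end as unique molecular identifiers (UMIs). There was 1 library per tissue, and how many animals went into each is not given in the sources used here. No difference below has a replicate check and none was tested, so every interval covers counting error only.

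GATA3 binds GATA sequence motifs in DNA. In helper T cells it drives the type 2 programme, with the cytokine genes Il4, Il5 and Il13 among its targets, and it is needed earlier for T cell development. In Tregs it is known from mouse work as a factor of cells at barrier surfaces, where it accompanies the interleukin 33 receptor ST2, and as a factor that restrains the type 1 and type 17 programmes.

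Gata3 (ENSMUSG00000015619) is a protein-coding gene on the minus strand of chromosome 2, at 9857078 to 9890034 of GRCm38, the assembly also called mm10, in GENCODE release M21. The annotation places 3 genes within it. Gm13256 and 4930412O13Rik lie on the opposite strand and 9230102O04Rik on the same strand, and they held 5, 12 and 88 UMIs in skin cells and 19, 1 and 5 UMIs in lung cells. Gata3 itself held 9984 UMIs in skin cells and 3347 UMIs in lung cells. Reads that the counting may have set aside as shared between overlapping genes were not measured here.

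The skin library had a median of 2058 UMIs per barcode and the lung library 2353.5. Transcripts of ribosomal proteins made up 19.0% of skin UMIs and 38.2% of lung UMIs, and genes of the early response to handling and stimulation took 2.27% of the UMIs of the median skin cell and 0.851% of those of the median lung cell. These shares, the mouse strain and the library differ together with tissue and cannot be told apart from it. The sort was visible in the transcripts. Ikzf2, the gene of the Treg factor Helios, stood at 1572 CPM (the UMIs of a gene scaled to a common total of UMIs) in skin and 555 CPM in lung, and Ctla4 at 1009 and 295 CPM, whereas Foxp3 itself was sparse, at 24.2 and 13.3 CPM, and was seen in 365 skin and 302 lung cells. At equal depth no skin cell and 9 lung cells held a UMI of the CD8 T cell gene Cd8a. Skin and lung shared 82 barcode sequences, 75 of them among the cells used.

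Gata3 was higher in skin than in lung by a wide margin. It stood at 631 CPM in skin (619 to 644) and at 143 CPM in lung (138 to 148), a ratio of 4.42 (4.25 to 4.60). Of the 5686 other genes with at least 20 CPM in either tissue, 200, or 3.52%, had a higher ratio of skin over lung on the scale of log2(CPM + 5), on which Gata3 was at 2.11 and the median gene at 0.36. Genes at least 2-fold higher in skin made up 14.9% of those genes, and genes at least 2-fold higher in lung 5.05%. That split rests on the scaling: it was 849 against 287 genes by CPM, 523 against 456 with median-of-ratios size factors, and 546 against 494 with totals that leave out mitochondrial and ribosomal protein genes. Gata3 was at 1.74 and 1.73 under the other 2 scalings, where the median gene was at 0.03 and 0.01. Each scaling multiplies a library by 1 factor and so moves Gata3 and the median gene together. Ratios of single genes given below are by CPM.

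To compare cells at equal depth, every cell was drawn down at random to 1000 UMIs, which left out 76 shallower lung cells and no skin cell. At that depth 43.6% of skin cells (42.4 to 44.8) and 12.7% of lung cells (11.99 to 13.44) held a Gata3 UMI. With all UMIs the shares were 66.25% in skin and 26.7% in lung. A cell without a Gata3 UMI is not a cell without Gata3: at a level of 1 UMI per 1000 or less, many cells that carry the transcript are read as 0.

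The skin cells also reached higher counts per cell. In skin 1776 cells held 1 Gata3 UMI, 652 held 2, 256 held 3 and 107 held 4 or more. In lung 918 cells held 1, 105 held 2, 22 held 3 and 6 held 4 or more. The variance of the count over its mean, which is 1 for pure counting noise and tends to grow with the mean, was 1.38 in skin at a mean of 0.677 UMIs and 1.19 in lung at a mean of 0.147. In skin, genes of a like mean lay on both sides of Gata3 on this measure. Lower were Ets1, a T cell transcription factor gene, with 1.13 at a mean of 0.744 UMIs, and Cd3e, with 1.06 at 0.573. Higher were Klf2, with 3.10 at 0.596, and Id2, with 1.76 at 0.548.

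**Figure D1:**
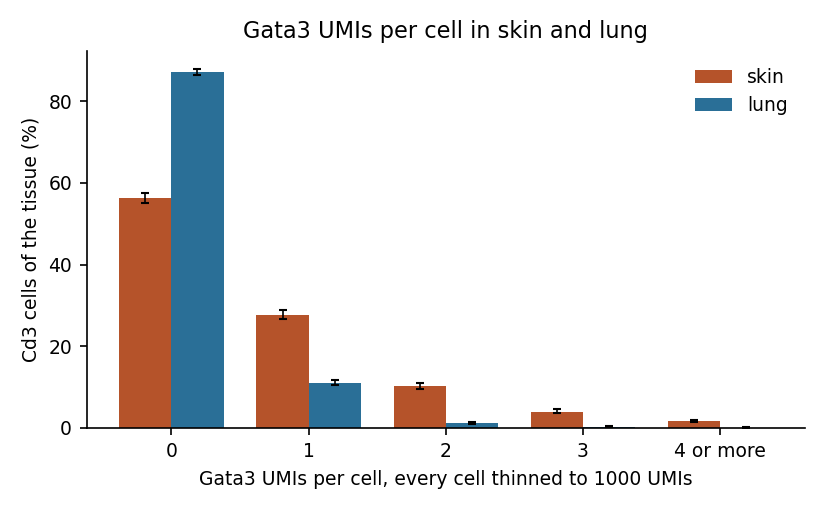
Share of Cd3 cells (vertical axis, percent of the cells of each tissue) by the number of Gata3 UMIs per cell after every cell was drawn down to 1000 UMIs (horizontal axis), for 6400 skin cells and 8273 lung cells. Error bars are exact 95% Clopper-Pearson intervals; skin exceeds lung at every count of 1 or more, with 15.9% of skin cells and 1.61% of lung cells at 2 or more.

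Barcodes of other cell types were read for comparison, and whether their Gata3 UMIs were free RNA or their own was not tested. The lung barcodes taken had no UMI of Cd3d, Cd3e or Cd3g and carried markers of another type. That lack alone does not exclude T cells among them. They held a Gata3 UMI in 11 of 148 cases at 1000 UMIs, or 7.43% (3.77 to 12.9), and stood at 49.3 CPM (31.3 to 74.0). The types differed. Lung epithelial barcodes held none in 29, which allows a share of up to 10.3%, and stood at 6.67 CPM, whereas lung endothelial barcodes held a Gata3 UMI in 8.43% of cases and stood at 97.2 CPM (58.5 to 152). In skin there were 19 such barcodes, of which 2 held a Gata3 UMI at 1000 UMIs. The 143 CPM of lung T cells lay above the interval of all lung barcodes of other types but within that of the endothelial ones, and the interval of their share, 11.99 to 13.44%, overlapped that of all other barcodes.

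Gata3 was also compared within cells of like early response and like ribosomal share, where the size of the difference varied. Among cells with under 1% of their UMIs in early response genes, Gata3 was at 445 CPM in skin and 137 CPM in lung. Among cells with 2% or more it was at 708 CPM in skin and 191 CPM in lung. The level was thus higher in cells with more early response UMIs in both tissues. In lung the shares with a Gata3 UMI were 11.9% (11.0 to 12.8) and 14.3% (10.8 to 18.5), with intervals that overlap. In cells with 20 to 35% of UMIs in ribosomal protein genes, where both tissues had over 2000 cells, the levels were 608 CPM in skin and 214 CPM in lung. In cells with 35% or more, which were 48 of the skin cells and 5974 of the lung cells, they were 187.5 CPM in skin and 124 CPM in lung, and 16.7% (7.48 to 30.2) of skin cells and 11.3% (10.5 to 12.1) of lung cells held a Gata3 UMI. There the intervals of the shares overlapped. The part of the early response in the Gata3 level was not tested. In cells with a Foxp3 UMI, Gata3 was at 565 CPM in skin and 165 CPM in lung.

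The signals that lead to Gata3 in T cells were not all higher on the side where Gata3 was high. Of 20 genes on a list of upstream signals, most of them receptors and transcription factors, 16 had at least 20 CPM in either tissue. Of these, 4 were 2-fold or more on the skin side and 3 on the lung side, beside 14.9% and 5.05% of all genes. Their median log2 ratio of skin over lung was 0.40, close to the 0.36 of all genes. Il1rl1, which encodes ST2, stood furthest on the skin side, at 132 CPM in skin and 7.64 CPM in lung, a ratio of 17.3 (14.9 to 20.3). Crlf2, the receptor chain for thymic stromal lymphopoietin, was at 150 and 53.55 CPM, and Notch1 and its nuclear partner Rbpj at 52.8 and 45.7 CPM in skin against 17.8 and 17.2 CPM in lung. The chain that receives interleukin 4, Il4ra, went the other way with 65.4 CPM in skin and 96.7 CPM in lung, and Stat6, the factor that it activates, stood at 46.8 and 40.6 CPM. Tcf7, the gene of the T cell factor TCF1 that acts on Gata3 in early T cell development, was at 29.9 CPM in skin and 190 CPM in lung, a ratio of 0.16 (0.14 to 0.17). Stat5b was also at least 2-fold higher in lung. So was Dgka, a kinase gene on the list that is neither a receptor nor a transcription factor.

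Among 20 listed partners and antagonists of GATA3, 15 had at least 20 CPM in either tissue. Of these, 4 were 2-fold or more on the skin side and 2 on the lung side, beside 14.9% and 5.05% of all genes. Their median log2 ratio was 0.64, against 0.36 for all genes. Zfpm1, which encodes the cofactor FOG1, was low in both tissues, at 6.32 CPM in skin and 5.29 CPM in lung. So was Tbx21, the gene of the type 1 factor T-bet that GATA3 opposes in helper T cells, at 3.86 and 1.32 CPM. Bcl6, a repressor that defines follicular helper T cells, was at 22.1 CPM in skin and 4.22 CPM in lung. The inhibitors of E proteins split: Id2 stood at 511 CPM in skin and 114 CPM in lung, and Id3 at 22.2 and 99.3 CPM. Runx3, a factor that binds with Cbfb, was at 69.0 and 26.2 CPM.

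With all UMIs counted, none of the other GATA genes reached 20 CPM in either tissue. Gata1, known for red cell and mast cell development, had 1.52 CPM in skin and 16.9 CPM in lung, so that it ran against Gata3. Gata2 had 0.19 and 3.54 CPM, Gata6 0.44 and 0.90 CPM, Gata5 was at 0 in skin and 0.30 CPM in lung, and Gata4 was at 0 UMIs in both, which allows up to 0.19 CPM in skin and 0.128 CPM in lung. Gata1 did not follow Gata3 from cell to cell in lung, where at 1000 UMIs per cell it stood at 21.9 CPM both in cells with and in cells without a Gata3 UMI.

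Targets of the type 2 programme were nearly all on the skin side. Of 20 listed genes 11 reached 20 CPM, and 10 of them were 2-fold or more on the skin side and none on the lung side. Over all genes these shares were 14.9% and 5.05%. The median log2 ratio of the list was 3.23, against 0.36 for all genes. The list was chosen with earlier results of these data known. Il13 stood at 189 CPM in skin and had 0 UMIs in lung. Il4 was at 45.4 CPM in skin and 0.38 CPM in lung, Ccr8, a chemokine receptor of skin T cells, at 95.8 and 4.95 CPM, and Areg at 1242 and 39.8 CPM. Maf, a partner factor of type 2 cytokine genes, was at 359 and 80.5 CPM. The exception was Ecm1, the gene of an extracellular matrix protein of type 2 cells, at 63.8 CPM in skin and 110 CPM in lung.

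Within each tissue, the cells that held a UMI of a listed T cell marker were compared with those that did not, at 1000 UMIs per cell. There were 21 markers with at least 20 positive cells in both tissues, and Gata3 was higher in the skin cells than in the lung cells with each of them. The ratio was lowest for Ccr8, at 1.91 (1.10 to 3.61), and highest for Itgae, the integrin chain CD103, at 5.40 (2.92 to 11.3).

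In skin, Gata3 was higher with some effector markers, and the steps differed between markers. For S100a4 the shares were 44.1% with and 42.6% without the marker, with intervals that overlap. Klrg1, a receptor of terminally differentiated effector cells, gave 50.4% with and 42.2% without the marker, Il1rl1 46.8% and 43.2%, Ccr8 48.75% and 43.1%, and Tnfrsf4, the gene of the costimulatory receptor OX40, 45.9% and 37.4%. The intervals of Il1rl1, 43.3 to 50.4% and 41.9 to 44.5%, also overlap. For Klrg1 the level was 803 CPM with and 649 CPM without the marker, a ratio of 1.24 (1.15 to 1.33). Skin cells with Ccr7 had less Gata3. Gata3 was held by 34.0% (29.5 to 38.8) of the 423 skin cells with a UMI of Ccr7, the receptor that guides T cells to lymph nodes, against 44.3% of the others. Tbx21 gave 16.7% in 24 cells against 43.7%. In lung, where 2999 cells held Ccr7, the shares were 13.2% with and 12.4% without it, with intervals that overlap.

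In lung, Gata3 was higher in the few cells with some effector markers, though not all. Of 118 lung cells with a UMI of Klrg1, 26.3% (18.6 to 35.2) held a Gata3 UMI, against 12.5% of the lung cells without one, and the level was 407 against 143 CPM, a ratio of 2.84 (2.08 to 3.78). The 32 lung cells with Ccr8 had 28.1% and the 44 with Il1rl1 25.0%, with wide intervals of 13.75 to 46.75% and 13.2 to 40.3%. Areg, S100a4 and Tnfrsf4 gave smaller steps, with 15.7%, 16.2% and 15.6% of the lung cells that held them positive, against 12.6%, 12.3% and 11.3% of those that did not. For Areg the intervals, 11.4 to 20.9% and 11.9 to 13.4%, overlap. Itgae went the other way, with 11.7% (5.49 to 21.0) in 77 lung cells against 12.7%. Without cells that held other cell types' markers, Areg gave 24.4% (17.9 to 31.8) against 11.8% in lung, a ratio of levels of 2.31, and Ccr8 gave 18.5% (6.30 to 38.1) against 12.1%, so that the order of these markers turned.

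**Figure D2:**
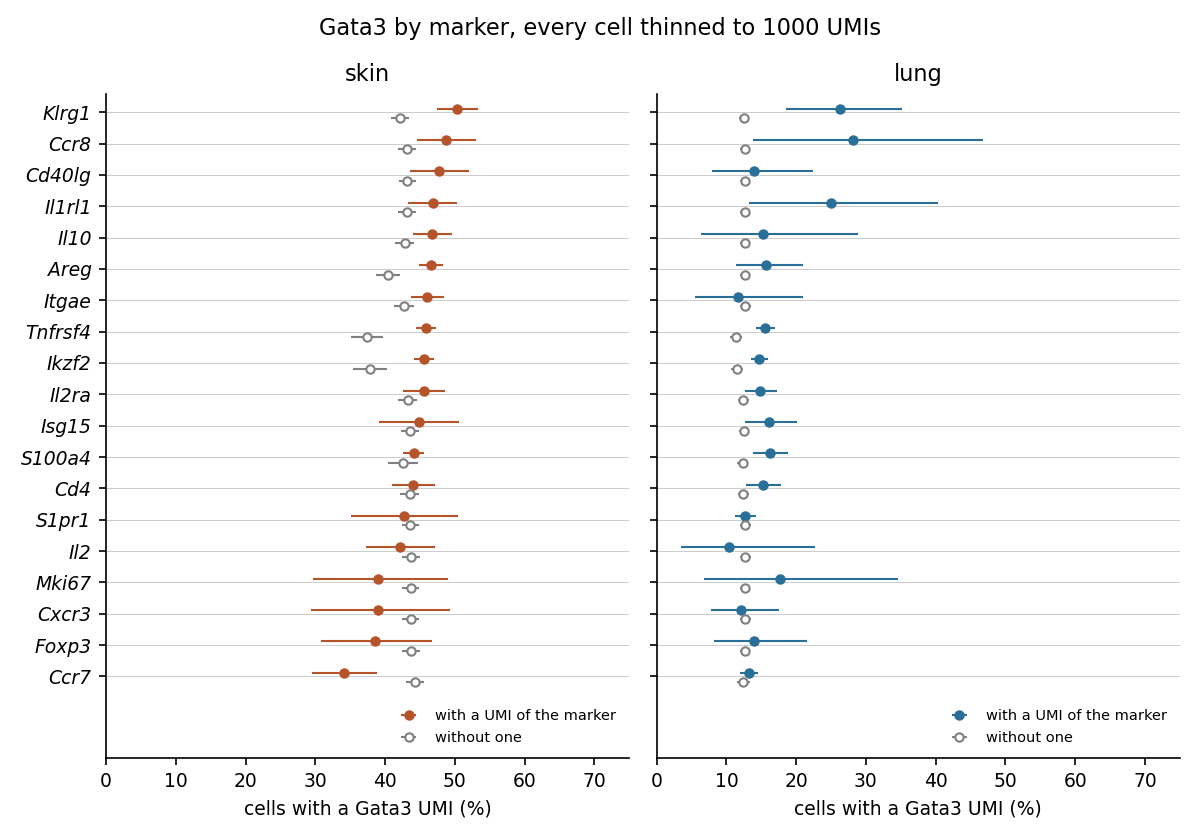
Share of cells with a Gata3 UMI (horizontal axis, percent) among cells with a UMI of the marker named at the left (filled points) and cells without one (open points), in skin (left) and lung (right), every cell drawn down to 1000 UMIs. Lines are exact 95% Clopper-Pearson intervals; the lung points for Klrg1, Ccr8 and Il1rl1 lie at 25 to 28.1% beside 12.5 to 12.6% without the marker, and the skin point for Ccr7 lies lowest, at 34.0%.

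Cells were then ordered by whole gene lists. A list of 24 effector genes, among them Klrg1, Itgae, Cd44 and S100a4, was summed per cell. In skin Gata3 was at 393 CPM (294 to 514) in cells with 1 to 2 UMIs of the list, 432 CPM at 3 to 5, 666 CPM at 6 to 9 and 714 CPM (690 to 739) at 10 or more. In lung it was at 124 CPM (110 to 139) in cells with 0 UMIs of the list, 137 CPM at 1 to 2, 163 CPM at 3 to 5, 242 CPM at 6 to 9 and 299 CPM (223 to 392) at 10 or more. Skin cells with the fewest effector UMIs thus overlapped in Gata3 with the lung cells that had the most. In each group of effector UMIs that held at least 20 cells of both tissues, the skin cells were above the lung cells. With a list of 20 genes of recirculating T cells, Gata3 in skin was at 683 CPM in cells with 0 UMIs, 690 CPM at 1 to 2, 673 CPM at 3 to 5, 530 CPM at 6 to 9 and 643 CPM (450 to 890) at 10 or more. In lung it was at 227 CPM (127 to 375), 180 CPM, 143 CPM, 137 CPM and 155 CPM in the same groups. The lung cells with 0 to 2 UMIs of that list, the higher ones, were few, at 66 and 489 of 8273.

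**Figure D3:**
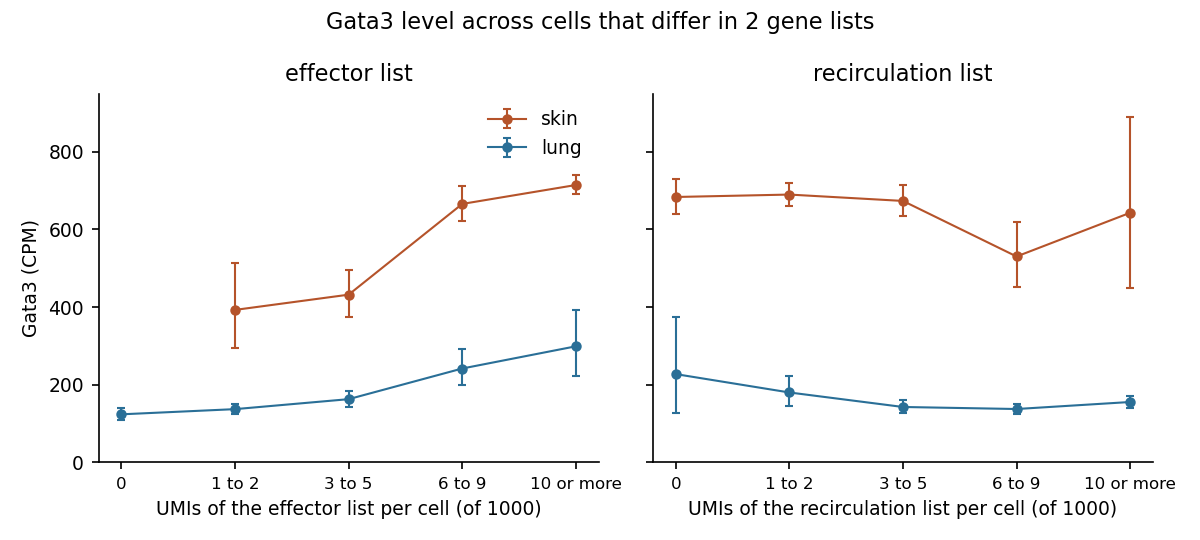
Gata3 level (vertical axis, CPM) in cells grouped by the summed UMIs of 24 effector genes (left) or 20 recirculation genes (right) per cell of 1000 UMIs (horizontal axis), in skin and in lung. Error bars are exact 95% Poisson intervals; with the effector list Gata3 runs from 393 to 714 CPM in skin and from 124 to 299 CPM in lung, and groups of under 20 cells are left out.

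Next, the genes that were higher or lower in the 2791 skin cells and 1051 lung cells with a Gata3 UMI than in the 3609 skin cells and 7222 lung cells without one were listed, on the scale of log2(CPM + 5). In skin 6 of 5508 genes (0.109%) were at least 1.5-fold higher in Gata3-positive cells and 75 (1.36%) at least 1.5-fold lower. In lung 49 of 4765 genes (1.03%) were higher and 50 (1.05%) lower. The counts moved with the random draw of UMIs, and a second draw gave 11 higher genes in skin and 93 in lung. The highest correlation of Gata3 with another gene across cells was weak, at r = 0.0907 in 6400 skin cells and r = 0.0886 in 8273 lung cells, in both cases with Tnfrsf4.

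The lower genes were led by markers of other cell types. In skin all 6 measured genes of the fibroblast list were lower in Gata3-positive cells, with a median log2 ratio of −1.95 against 0.01 for all genes, and their list summed to 354 CPM in Gata3-positive and 1441 CPM in Gata3-negative cells. Of the 12 lowest genes by rule, Col1a1, Col1a2, Col3a1, Dcn, Lum and Sparc are on that list and Lyz2 and H2-Aa on the myeloid list, and Ccl21a, Cd63, Retnla and Serpinh1 made up the rest. In lung Sftpc, Sftpa1, Sftpb and Scgb1a1, which encode surfactant and club cell proteins, were among the 12 lowest, with Lyz2 and Cd74 of the myeloid list and Mgp, Gsn, Ccl5, Ppp3ca, Mrpl18 and Xpa. The lung epithelium list summed to 438 CPM in Gata3-positive and 1817 CPM in Gata3-negative lung cells. Gsn, Lyz2 and Cd74 were lower in both tissues.

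Cells with 2 or more UMIs of any list of another cell type were then left out, which removed 32.7% of skin and 33.7% of lung cells. The markers of other cell types that still had at least 20 CPM no longer stood apart. That step takes out most of their UMIs by its own construction. Col1a1 was then at −0.16, Dcn at −0.17 and Col1a2 at 0.42 in skin, and Sftpc at −0.14 and Lyz2 at 0.07 in lung. Ccl5, which is not on those lists, stayed low in lung, at −1.23. It was at 21.0 CPM in Gata3-positive and 56.1 CPM in Gata3-negative cells. Gata3 itself was then at 688 CPM (672 to 706) in skin, above the 631 CPM of all skin cells, and at 143 CPM in lung. In that set 0.53% of genes in skin and 3.52% in lung were at least 1.5-fold higher in Gata3-positive cells, and 0.494% and 1.87% were lower.

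**Figure D4:**
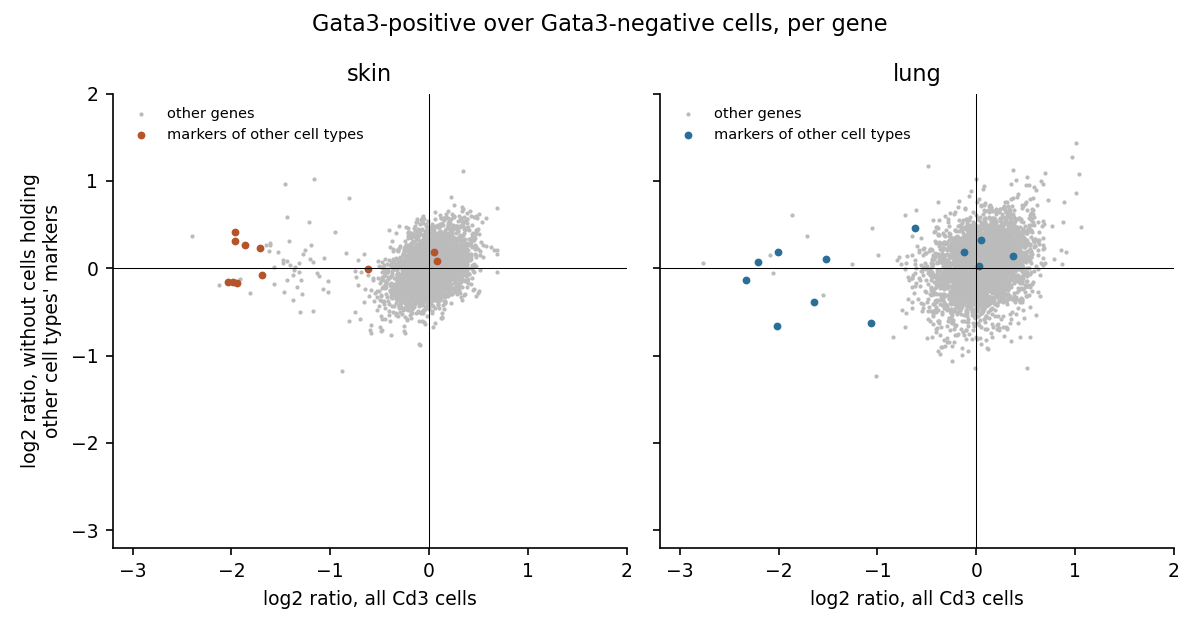
Each point is 1 gene with at least 20 CPM, placed by its log2 ratio of (CPM + 5) between Gata3-positive and Gata3-negative cells in all Cd3 cells (horizontal axis) and in cells without other cell types' markers (vertical axis), in skin (left) and lung (right). The coloured markers of other cell types lie as low as −2.04 in skin and −2.34 in lung along the horizontal axis and from −0.67 to 0.46 along the vertical axis for those named in the text.

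Of the genes that T cells themselves express, those of the effector list were mostly higher in Gata3-positive cells. Over all genes, 2870 of 5508 in skin and 2891 of 4765 in lung were above 0. In skin 20 of 24 measured genes of the effector list were above 0, 1, the lipid enzyme gene Dgat2, was at least 1.5-fold higher in Gata3-positive cells, and the median log2 ratio was 0.12 against 0.01 for all genes. In lung all 16 measured were above 0 and 6 were at least 1.5-fold higher, with a median of 0.41 against 0.05. Klrg1 was at 280 CPM in Gata3-positive and 199 CPM in Gata3-negative skin cells, and at 39.0 and 16.9 CPM in lung cells. Bhlhe40, a transcription factor of activated T cells, was at 180 CPM in Gata3-positive and 176 CPM in Gata3-negative skin cells, and at 67.6 and 32.1 CPM in lung cells. The inhibitory receptor gene Pdcd1 was at 123 and 93.4 CPM in skin and at 41.9 and 18.3 CPM in lung, and Tnfrsf9, the gene of the costimulatory receptor 4-1BB, at 257 and 231 CPM in skin and at 83.7 and 49.85 CPM in lung.

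The list of Treg genes was nearer to all genes, above all in skin. There 11 of 18 measured genes were above 0, with a median of 0.06, and 1 gene was at least 1.5-fold lower, Izumo1r, which encodes folate receptor 4, at 108 CPM in Gata3-positive and 166 CPM in Gata3-negative cells. In lung 13 of 15 were above 0, with a median of 0.22, and none was at least 1.5-fold apart. Tnfrsf4 was at 685 CPM in Gata3-positive and 457 CPM in Gata3-negative lung cells, Ikzf2 at 694 and 567 CPM, and Tnfrsf18, the gene of the receptor GITR, at 443 and 346 CPM. Foxp3 stood at 21.5 and 26.9 CPM in skin and at 16.2 and 13.7 CPM in lung, and the intervals of both ratios included 1. Without cells that held other cell types' markers, 18 of 24 measured effector genes were above 0 in skin, none of them 1.5-fold higher, with a median of 0.07, so that the call of Dgat2 was lost. In that set so were 15 of 15 in lung, 9 of them at least 1.5-fold higher, with a median of 0.69. Over all genes in that set 2842 of 5471 in skin and 2850 of 4771 in lung were above 0. Their medians were 0.01 and 0.06, and 0.53% and 3.52% were at least 1.5-fold higher.

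Recirculation genes were mostly on the low side in skin, and whether lung differed from skin in this was not tested. Of 15 measured in skin 4 were above 0 and 3 at least 1.5-fold lower, with a median of −0.14. Over all genes in skin 2870 of 5508 were above 0 and 1.36% at least 1.5-fold lower, with a median of 0.01. In lung 11 of 20 were above 0 and none was 1.5-fold apart, with a median of 0.01. Over all genes in lung 2891 of 4765 were above 0, with a median of 0.05. Without cells that held other cell types' markers, 4 of 14 were above 0 in skin, with a median of −0.17, and 6 of 20 in lung, with a median of −0.07. All genes of that set gave 2842 of 5471 above 0 in skin and 2850 of 4771 in lung, with medians of 0.01 and 0.06. Ccr7 was at 70.2 CPM in Gata3-positive and 133 CPM in Gata3-negative skin cells, a ratio of 0.527 (0.444 to 0.623), and at 738 and 618 CPM in lung cells. Satb1, a chromatin organiser of naive T cells, was at 19.7 and 35.2 CPM in skin and at 494 and 448 CPM in lung. Of these 3 genes in skin, Ccr7 alone was 1.5-fold lower without cells that held other cell types' markers, at −1.18, while Satb1 was at −0.58 and Ly6c1 at 0.27.

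Genes of the upstream and partner lists differed little within tissues. In all Cd3 cells, none of the 15 upstream genes measured in skin or the 13 in lung was 1.5-fold apart, and none of the 13 partners in either. Without cells that held other cell types' markers 1 partner passed 1.5-fold in skin, Lmo4, at 43.9 CPM in Gata3-positive and 27.2 CPM in Gata3-negative cells. Of all genes in that set 0.53% were that much higher in skin. Id2 was at 623 CPM in Gata3-positive and 490 CPM in Gata3-negative skin cells and at 139 and 102 CPM in lung cells. Tcf7 was at 26.2 and 36.3 CPM in skin and at 185 and 201 CPM in lung. Il1rl1 was at 155 and 134 CPM in skin and, under the minimum, at 10.5 and 4.85 CPM in lung. For other programmes, beside medians of 0.01 in skin and 0.05 in lung for all genes, the median of the T cell receptor activation list was 0.07 in skin and 0.25 in lung, of the early response list −0.01 and 0.02, of the interferon list −0.07 and −0.09 of the type 1 list −0.14 and −0.05 and of the cell cycle list −0.25 and 0.09. None of the 6 cell cycle genes measured in skin and all 4 measured in lung were above 0, and without cells that held other cell types' markers 1 of 6 and 3 of 4 were. For all genes the counts were 2870 of 5508 in skin and 2891 of 4765 in lung, and without those cells 2842 of 5471 and 2850 of 4771. Of the type 2 list, Areg was at 1517 CPM in Gata3-positive and 1207 CPM in Gata3-negative skin cells, Il13 at 212 and 175 CPM, and none of the 11 measured genes was 1.5-fold apart in skin or of the 4 in lung. Without cells that held other cell types' markers, 2 of 5 in lung were 1.5-fold higher, beside 3.52% of all genes. These were Areg at 75.1 CPM in Gata3-positive and 34.9 CPM in Gata3-negative cells and Il10 at 25.5 and 5.19 CPM.

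The 12 genes highest by rule in skin were Cxcl2, Gnaq, Ptafr, Tnfsf9, Cmip, Klrg1, Tor1a, Amz2, Kctd12, Taf15, Sik2 and Baz1a, at log2 ratios of 0.42 to 0.69. Their values moved with the setting. Klrg1 was at 0.31 in a second draw and 0.28 with no filter on cells, Ptafr at 0.31 and 0.29, and Cxcl2 at 0.65 and 0.56. Tnfsf9 was at −0.08 and Tor1a at 0.03 in the second draw, and without cells that held other cell types' markers Taf15 was at −0.25 and Amz2 at 0.05. Cxcl2, a chemokine gene that draws neutrophils, was at 148 CPM in Gata3-positive and 89.8 CPM in Gata3-negative skin cells and was seen in 5.27% and 3.30% of them. Counted with all UMIs, its 10 highest cells held 32.3% of its UMIs in skin.

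The 12 highest in lung were Cd83, Bhlhe40, Bcl2a1b, Tnfrsf9, Ifrd1, Samsn1, Mbnl3, Zfp53, Tnfrsf4, Birc2, Rel and Mob3a, at log2 ratios of 0.55 to 1.04. Of these, Mbnl3 was at −0.03 and Zfp53 at 0.35 in a second draw, and Mob3a was at 0.18 without cells that held other cell types' markers. Cd83, a surface protein of activated lymphocytes, led with 99.9 CPM in Gata3-positive and 46.0 CPM in Gata3-negative lung cells, a ratio of 2.17 (1.73 to 2.71), and stood at 453 and 446 CPM in skin cells. Rel, a subunit of NF-κB, was at 103 and 67.9 CPM, and Samsn1, an adaptor gene, at 223 and 142 CPM. Bcl2a1b has near-identical copies, so that its counts are uncertain. In skin none of these 12 was 1.5-fold apart in either direction.

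Some of these genes were also higher in cells with 2 or more Gata3 UMIs than in cells with 1. In skin Klrg1 was at 199 CPM in cells with 0 Gata3 UMIs, 259 CPM with 1 and 316 CPM with 2 or more and Areg at 1207, 1443 and 1647 CPM, while Cd83 was flat at 446, 467 and 429 CPM. Ccr7 in skin ran down, at 133, 81.1 and 51.2 CPM. In lung Klrg1 was at 16.9 CPM in cells with 0 Gata3 UMIs, 25.1 CPM with 1 and 135 CPM (80.2 to 214) with 2 or more, Tnfrsf4 at 457, 633 and 1045 CPM, and Cd83 at 46.0, 89.3 and 173 CPM. Areg in lung was level at 39.7 and 43.6 CPM with 0 and 1 and stood at 128 CPM with 2 or more.

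**Figure D5:**
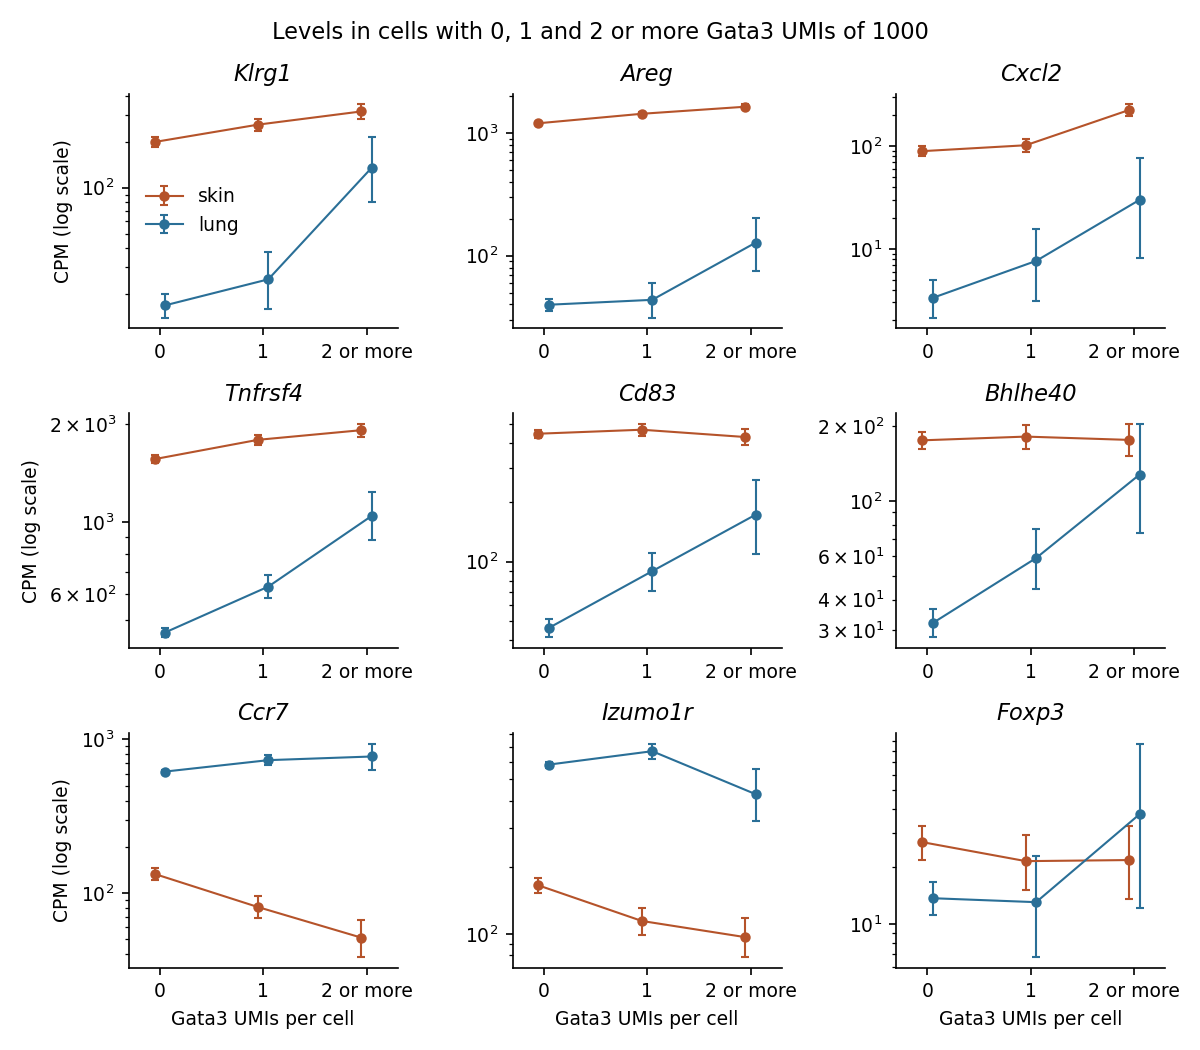
Level of 9 genes (vertical axes, CPM on a log scale) in cells with 0, 1 and 2 or more Gata3 UMIs of 1000 (horizontal axes) in skin and in lung, with exact 95% Poisson intervals. Cd83 and Bhlhe40 climb in lung and are flat in skin, and Ccr7 and Izumo1r are lower with more Gata3 in skin; the lung cells with 2 or more number 133.

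With all UMIs counted, in cells compared within 10 classes of depth and without those that held 0.5% or more of their UMIs in other cell types' markers, Klrg1 was again among the highest in both tissues. It was at 253 CPM in Gata3-positive and 166 CPM in Gata3-negative skin cells and at 60.9 and 19.6 CPM in lung cells. Igfbp3 led in skin, at 77.4 and 23.5 CPM, with 86.5% of its UMIs in 10 cells. In skin Metrnl, which encodes a secreted protein, was at 106 and 71.3 CPM, Calca, a neuropeptide gene, at 402 and 275 CPM and Cxcr6, a chemokine receptor gene of resident T cells, at 727 and 545 CPM. The lowest in skin were Acta2, Gzmc and Ccl1, at log2 ratios of −2.46, −2.40 and −1.70. Their 10 highest cells held 89.0%, 49.0% and 76.5% of their UMIs. After these, Ccr7 was at 92.6 and 218 CPM, Izumo1r at 133 and 243 CPM, and Bcl2, a survival gene, at 45.5 and 79.7 CPM. Areg was at 60.3 and 29.1 CPM, Pdcd1 at 32.3 and 16.1 CPM and Itgb1, an integrin chain, at 127 and 75.6 CPM in lung.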

How the data were processed

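The authors deposited raw, unnormalized UMI counts for barcodes that had already passed cell calling, per the file headers and values. The submitters' processing notes name Cell Ranger and mm10, and the lung header names software version 3.0.2. A second lung table, whose 8626 barcodes are all in the first, was not used. Barcodes with at least 200 genes, at most 10% mitochondrial UMIs and at least 1 UMI of Cd3d, Cd3e or Cd3g were kept, which removed 134 skin and 89 lung barcodes by the first filters and 67 and 292 by the last. No doublet caller was run; leaving out the 6% of cells with the most UMIs was tried instead. CPM were computed here over the 27514 shared identifiers. Cells were thinned without replacement to 1000 UMIs, and a pseudocount of 5 CPM, a minimum of 20 CPM and folds of 1.5 within and 2 between tissues were used (Python 3.11.15, NumPy 2.4.6, SciPy 1.17.1). Intervals are 95% exact Poisson, binomial or Clopper-Pearson and hold counting error alone. The limit for a count of 0 is 3 counts. The calculations were tested on simulated data. Named genes are the 12 highest and 12 lowest with at least 50 CPM per tissue, without receptor segments, mitochondrial, ribosomal protein, haemoglobin and Gm or Rik genes, those past 1.5-fold in both tissues, and list members. Members and lists were chosen with earlier results of these data known, and the groups by list and the genes of the stepwise plot after their values were seen. Some genes of the lists are not reported here.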

Additional observations from a re-analysis of the deposited data

How the results depend on the processing

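No paired analysis was possible because there was 1 library per tissue, and for the same reason no replicate could be left out. Gata3 was higher in skin in every setting run; the cause of each shift was not tested. The log2 ratio of skin over lung, 2.14 in the report, was 2.23 without the 6% of cells with the most UMIs, 2.27 without cells holding other cell types' markers, 1.77 in cells with a Foxp3 UMI, 1.59 in cells with under 1% early response UMIs, 1.77 with median-of-ratios scaling, 1.75 without mitochondrial and ribosomal protein totals, and 2.22 as a mean of per-cell CPM. In the same order the first 4 settings gave skin shares of 45.2%, 45.4%, 40.3% and 34.1%. Lung shares were 11.97% without the deepest cells, 11.99% with at least 2 Cd3 UMIs, 14.5% with a Foxp3 UMI and 11.2% with under 1% early response UMIs. Skin and lung shares were 26.6% and 6.67% at 500 UMIs, 62.3% and 19.9% at 2000 UMIs (which leaves out 2956 skin and 2540 lung cells), and 32.3% and 10.4% at 500 UMIs outside mitochondrial and ribosomal protein genes.

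Counts of genes 1.5-fold apart depended on nearly every setting. Genes higher and lower in Gata3-positive skin cells, 6 and 75 in the report, numbered 12 and 28 without the deepest cells, 29 and 27 without other cell types' markers, 90 and 155 at 500 UMIs, 10 and 135 at 2000, 67 and 157 at 500 outside mitochondrial and ribosomal genes, 22 and 150 with a minimum of 10 CPM, and 1 and 28 with 50 CPM; 15 were higher with a pseudocount of 1, 1 with 20, and 11 in another draw. In lung, 49 and 50 in the report, 81 were higher with no filter, 121 with at least 2 Cd3 UMIs, 97 without the deepest cells and 93 in another draw. Higher and lower numbered 168 and 89 without other cell types' markers, 179 and 110 with under 1% early response UMIs, 544 and 355 at 500 UMIs, 268 and 268 outside mitochondrial and ribosomal genes, 116 and 76 with a pseudocount of 1, 6 and 15 with 20, 129 and 132 with 10 CPM, and 8 and 12 with 50 CPM, and 30 were lower at 2000 UMIs. Settings chosen after seeing the data were leaving out cells with 0.5% or more of their UMIs in other cell types' markers (12 and 14 in skin, 96 higher in lung), all UMIs within 10 classes of depth (243 lower in skin, 27 and 92 in lung), and both together (12 and 27 in skin, 20 and 13 in lung).

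Named genes past 1.5-fold that changed direction on the log2 scale included markers of other cell types. Genes on no such list that did so included Retnla, Gsn, Ccl5, Ppp3ca, Xpa, Mrpl18, Mbnl3 and Zfp53, and in skin Ccl21a, Cd63 and Serpinh1. Ccl21a was at 0.37 in skin without cells holding such markers, at 16.9 and 11.9 CPM, under the minimum of 20 CPM. Without cells holding such markers Col3a1 was at 0.27, Col1a2 at 0.42, Sparc at 0.31 and Retnla at 0.29 in skin, and Gsn at 0.46, Xpa at 0.048, Lyz2 at 0.071, Cd74 at 0.46 and Scgb1a1 at 0.10 in lung. Ccl5 did not turn in that setting, at −1.23 in lung. Below the 0.5% limit Col3a1 was at 0.098, Col1a2 at 0.25, Dcn at 0.0093 and Col1a1 at 0.11 in skin, and Ppp3ca at 0.084, Lyz2 at 0.069, Sftpa1 at 0.35, Sftpc at 0.014, Ccl5 at 0.56, Cd74 at 0.33 and Scgb1a1 at 0.013 in lung. With the 10 classes of depth added, Col3a1 was at 0.15, Col1a2 at 0.14, Dcn at 0.24, Col1a1 at 0.22 and Retnla at 0.13 in skin, and Ppp3ca at 0.057, Xpa at 0.00054, Mrpl18 at 0.049 and Cd74 at 0.045 in lung. Serpinh1 was then at 0.14 and Cd63 at 0.031 in skin. The 10 classes of depth alone gave Ppp3ca 0.0055, Xpa 0.035, Ccl5 0.037 and Mrpl18 0.066 in lung. In lung, at least 2 Cd3 UMIs gave Ppp3ca 0.032, Mrpl18 0.050 and Cd74 0.49, under 1% early response UMIs Ppp3ca 0.28, Xpa 0.033 and Mrpl18 0.32, another draw Mbnl3 −0.027, Ppp3ca 0.051, Xpa 0.067 and Ccl5 0.11, 500 UMIs Mbnl3 −0.33, 2000 UMIs Ppp3ca 0.18, Xpa 0.11 and Zfp53 −0.11, and 500 outside mitochondrial and ribosomal genes Xpa 0.023. Genes were not compared within cells with a Foxp3 UMI, or within skin cells of under 1% early response UMIs, where fewer than 200 cells held Gata3.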
